A study of Mus musculus with 6 samples.

Results

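The small leucine-rich proteoglycans are secreted proteins of the extracellular matrix, and 10 of their genes were followed here in mouse cornea: Dcn, Bgn, Aspn, Lum, Kera, Fmod, Prelp, Omd, Ogn and Podn. They were taken by symbol from a given list, by a rule that reads no measured value, and all 10 were found among the 22007 gene symbols of the count tables. One tissue was compared in 2 groups. The OFBI group was male C57BL/6J mice labelled 12 months after an open-field blast injury, a single detonation of 350 g of C-4 plastic explosive at 3 m from awake animals. The Naive group was male C57BL/6J mice with the same 12-month label. Each group had 3 RNA-seq libraries, each from several pooled corneas and called a biological replicate by the submitters, so the spread between libraries is one between pools, and all 6 carried batch number 4.

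Each protein of the family is built on a curved stretch of leucine-rich repeats that binds collagen fibrils. Most carry sulfated sugar chains, chondroitin or dermatan sulfate on decorin and biglycan and keratan sulfate on lumican, keratocan and fibromodulin. In the cornea they are made mainly by keratocytes, the resident cells of the stroma. There they help to set the thin and evenly spaced collagen fibrils on which transparency depends. Mice without lumican have cloudy corneas, and human KERA mutations cause cornea plana, a flattened cornea.

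The sites that carry the sugar chains can be seen in the coding sequences of the pairs compared most closely below. Decorin and biglycan are near relatives that differ in the number of chains at the start of the protein, where a serine followed by a glycine takes a chondroitin or dermatan sulfate chain. Keratocan and lumican carry keratan sulfate on asparagines that stand before any residue but proline and then serine or threonine. The stretches below are reference coding sequence of GENCODE mouse release 21 on GRCm38, all on the + strand, and capitals mark such codons. They are the first 150 coding bases of Dcn (chr10:97483363-97483512) and Bgn (chrX:73490790-73490939), and 90 bases around the first such asparagine of Kera (chr10:97609018-97609107) and Lum (chr10:97568464-97568553).
Dcn: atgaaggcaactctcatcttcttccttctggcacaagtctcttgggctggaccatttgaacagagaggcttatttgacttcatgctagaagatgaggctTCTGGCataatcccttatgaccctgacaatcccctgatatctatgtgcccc
Bgn: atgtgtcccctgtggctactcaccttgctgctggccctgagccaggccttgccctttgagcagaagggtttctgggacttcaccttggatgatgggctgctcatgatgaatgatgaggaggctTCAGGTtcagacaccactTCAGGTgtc
Kera: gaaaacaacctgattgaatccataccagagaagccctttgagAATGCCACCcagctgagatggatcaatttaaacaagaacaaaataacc
Lum: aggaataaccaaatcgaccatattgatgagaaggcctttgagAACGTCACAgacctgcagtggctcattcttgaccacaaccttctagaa
Within the first 60 codons Dcn has 1 serine-glycine pair of codons, at codon 34, and Bgn has 2, at codons 42 and 48. The whole coding sequences of Kera and Lum hold 4 asparagine sites each. A matching pair of codons is a description of the reference and not evidence that a chain is attached.

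The members lie largely in neighbouring groups. Dcn, Lum and Kera stand with Epyc within 203 kb of chromosome 10 (97479609 to 97682454). Aspn, Omd and Ogn stand with Ecm2 within 120 kb of chromosome 13 (49504810 to 49624501), and Prelp and Fmod with Optc within 151 kb of chromosome 1 (133897199 to 134048277). Bgn is on chromosome X (73483602 to 73495933) and Podn on chromosome 4 (108014791 to 108096445).

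Depth followed the groups. Estimated counts summed to 3410476, 3355422 and 1173472 in the OFBI libraries, against 47809779, 43053764 and 41971752 in the Naive ones, so the mean Naive depth was 16.7 times the mean OFBI depth. Effects of the injury and of depth on the values of a gene cannot be told apart in this design. Thinning the deeper libraries evens out the count totals and no other difference between the libraries. Levels are CPM, counts scaled to a fixed library total, and adjusted between libraries by TMM factors. A gene at 0 was given a floor of 12 counts, taken as 3 fragments at an inferred 4 counts per fragment, which was 3.71, 3.84 and 11.2 CPM in OFBI replicates 1, 2 and 3 and 0.237 to 0.264 CPM in the Naive libraries. Floors cover counting error only.

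Of the 8 members tested, Dcn was called lower in OFBI corneas, and none was called higher. The edgeR filter on low counts left 8 members, without Aspn and Omd, and 1 of the 8 was called lower and 0 higher at a Benjamini-Hochberg adjusted p below 0.05. Over all 13941 tested genes, 10.4% were called lower and 8.41% higher (18.8% in either direction), so the share of members called is near that of the background. The count of members at an unadjusted p below 0.05 was also 1, against 4589 of all genes. The median log2 fold change, OFBI over Naive, was -0.56 over the 8 members and -0.20 over all tested genes. In bulk corneas, fewer cells that make a transcript and less of it per cell cannot be told apart.

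**Figure D1:**
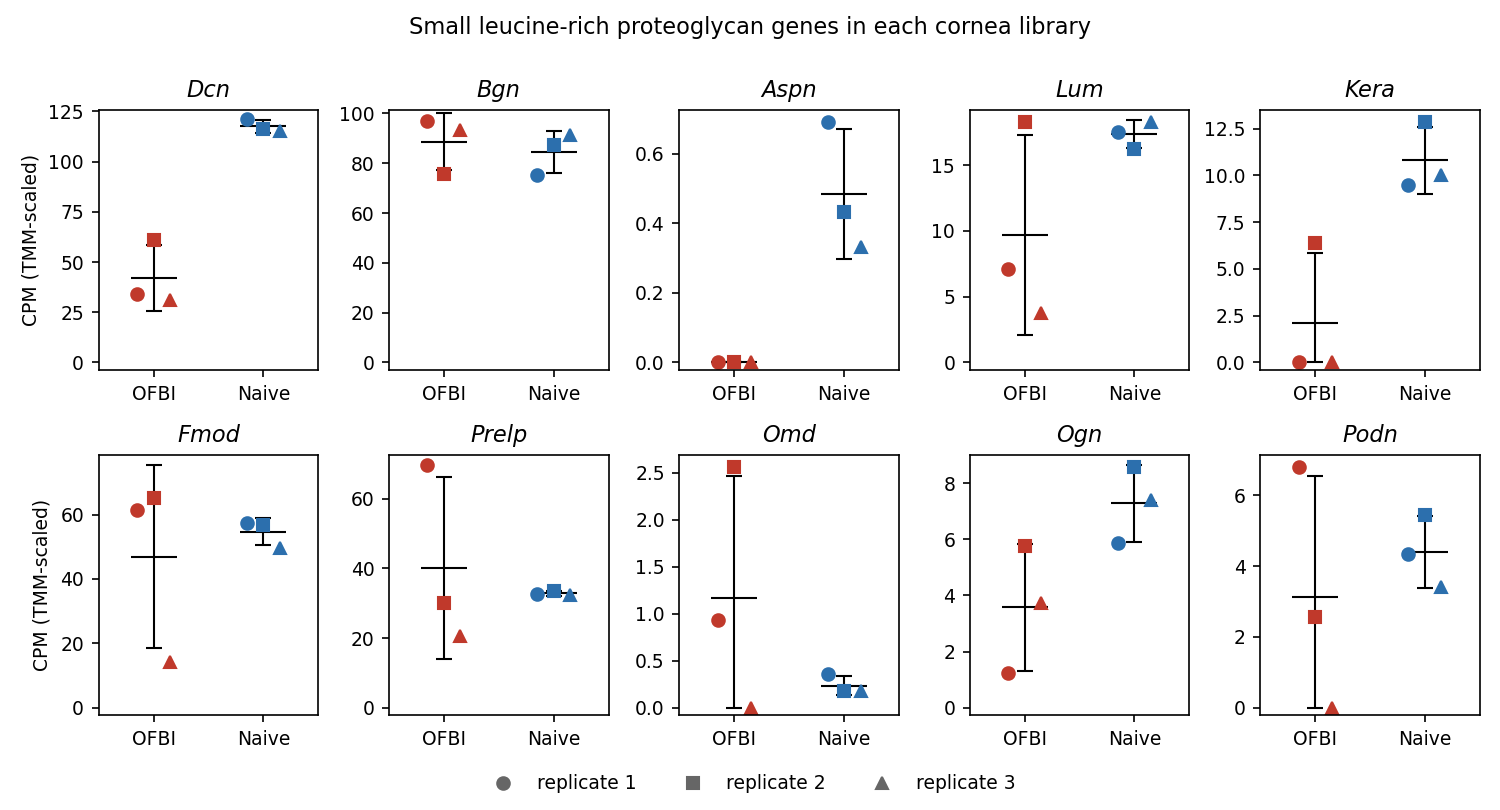
Level of each of the 10 members (CPM, TMM-scaled, a separate scale per panel) in the 3 OFBI (red) and 3 Naive (blue) libraries, with symbols for the replicate number, a line at the mean and bars of 1 SD that end at 0 where they would pass it. The OFBI points of Dcn, 30.9 to 61.1 CPM, lie below the Naive points, 115 to 121 CPM, while those of Bgn overlap and those of Fmod, Prelp and Podn spread on both sides of the Naive points.

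Decorin, Dcn (chromosome 10, 97479609 to 97518143), binds type I collagen, limits fibril width and binds TGF-beta and growth factor receptors. It had 34.3, 61.1 and 30.9 CPM in the OFBI libraries, against 121, 116 and 115 CPM in the Naive libraries. The lowest Naive library was above the highest OFBI library, which was replicate 2. The mean was 42.1 ± 16.6 CPM in OFBI and 118 ± 3.13 CPM in Naive corneas (SD, n = 3 each). It was 2.75-fold lower after OFBI, a log2 fold change of -1.46 (standard error 0.27, edgeR adjusted p = 0.0187). These levels rest on 111, 191 and 33 counts in OFBI and 6130, 5388 and 5233 in Naive libraries.

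The direction for Dcn was the same in all 32 alternatives, with log2 fold changes of -1.88 to -0.96, and the call held in 28 of them. When the Naive libraries were thinned to match OFBI replicate 1 it was -1.38 (edgeR adjusted p = 0.0178). When all 6 were thinned to match OFBI replicate 3 it was -1.41 (edgeR adjusted p = 0.0190). Without Naive replicate 1, 2 or 3 it was -1.41, -1.44 and -1.44, and the edgeR call was lost (edgeR adjusted p = 0.0848, 0.0905 and 0.0853). limma-voom also lost the call without OFBI replicate 1. Over all alternatives the adjusted p ran from 1.69e-32 to 0.0905.

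Biglycan, Bgn, the closest relative of decorin in the family, binds collagen and, once released from the matrix, Toll-like receptors. It had 97.1, 75.6 and 93.5 CPM in OFBI libraries, against 75.1, 87.3 and 91.4 CPM in Naive libraries. The groups overlapped, and OFBI replicate 2 and Naive replicate 1 were at the low end. The mean was 88.7 ± 11.5 CPM in OFBI and 84.6 ± 8.50 CPM in Naive corneas (SD, n = 3 each). The log2 fold change was 0.07 (standard error 0.17, edgeR adjusted p = 0.827), with an error smaller than that of every other tested member. It was -0.14 when library size alone set the scale, which is one of 6 alternatives that turned its sign.

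Since both genes were counted in the same libraries, their ratio does not depend on the scaling between libraries. It can still depend on base composition, which differs between Bgn (52.5% G and C) and Dcn (42.8%) and is taken up below. The log2 ratio of Bgn to Dcn counts, with 0.5 added to each, was 1.50, 0.30 and 1.58 in OFBI libraries and -0.69, -0.41 and -0.33 in Naive libraries. Bgn thus had more counts than Dcn in each of the 3 OFBI libraries and fewer in each of the 3 Naive libraries. The group means differed by 1.61 (exact permutation test, two-sided, p = 0.1, the smallest that 3 against 3 libraries allow). This ratio was 1 of 3 compared, and no p adjusted over 3 ratios can pass 0.05 here.

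Asporin, Aspn (chromosome 13, 49544443 to 49567565), the other close relative of decorin, was at 0 in all OFBI libraries and had 35, 20 and 15 counts in Naive libraries. The Naive level, 0.484 ± 0.186 CPM (SD, n = 3), lies under 1.62 CPM, the floor of the 3 OFBI libraries together. A difference was therefore not detectable at the OFBI depth, and Aspn was not among the tested genes.

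Lumican, Lum (chromosome 10, 97565128 to 97572703), is a major keratan sulfate proteoglycan of the corneal stroma. It had 7.11, 18.2 and 3.74 CPM in OFBI libraries, against 17.5, 16.2 and 18.3 CPM in Naive libraries. OFBI replicate 2 was at the Naive level and the other two OFBI libraries were below it, so the groups overlapped. The mean was 9.70 ± 7.59 CPM in OFBI and 17.3 ± 1.05 CPM in Naive corneas (SD, n = 3 each). The log2 fold change was -0.77 (standard error 0.54, edgeR adjusted p = 0.367). Without OFBI replicate 2 it was -1.61 (edgeR adjusted p = 0.0384). It was -0.55 without OFBI replicate 1 and -0.46 without OFBI replicate 3 (edgeR adjusted p = 0.531 and 0.403). Thinning the Naive libraries gave -0.62, and thinning all libraries gave -0.21 (edgeR adjusted p = 0.509 and 0.853). The sign was the same in all 32 alternatives, and Lum was called in 2 of them, both without OFBI replicate 2. In OFBI replicate 3 Lum rested on 4 counts, which is under the floor.

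Keratocan, Kera (chromosome 10, 97606879 to 97613692), is the member most restricted to corneal keratocytes. It had 20 counts in OFBI replicate 2 and 0 in OFBI replicates 1 and 3, against 480, 597 and 456 counts in Naive libraries. In CPM these are 0, 6.40 and 0 in OFBI, against 9.48, 12.9 and 10.05 in Naive corneas, so the groups did not overlap. The log2 fold change was -2.15 with an SE of 1.17 and did not pass (edgeR adjusted p = 0.254). The mean Naive level of 10.8 CPM lies under the floor of 11.2 CPM in OFBI replicate 3, so a difference was not detectable in that library.

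The call for Kera depended on the tool and on OFBI replicate 2. limma-voom called 2 members lower, Dcn and Kera, DESeq2 called 1, Dcn, and neither called a member higher. limma-voom called 8.95% of all genes lower and 7.31% higher (16.3% in either direction), and DESeq2 12.0% lower and 12.8% higher (24.8%). With limma-voom the log2 fold change was -3.80 (limma adjusted p = 0.0399), and with its quality weights -3.85 (limma adjusted p = 0.0426). With a library left out, limma-voom kept the call for Kera only without OFBI replicate 2. The limma adjusted p was 0.0612, 0.0793 and 0.0707 without Naive replicate 1, 2 or 3. It was 0.112 and 0.113 without OFBI replicate 1 or 3. Without OFBI replicate 2, edgeR, DESeq2 and limma-voom all called Kera (edgeR adjusted p = 0.0155). The 2 OFBI libraries left, replicates 1 and 3, were at 0. Taking a floor of 2.79 CPM over them together, that is at least 3.86-fold lower than the Naive level of 10.8 CPM. This fold leaves out the 1 OFBI library with Kera counts. The floor of OFBI replicate 3 alone, 11.2 CPM, is above the Naive level. Over 31 alternatives the adjusted p ran from 4.69e-05 to 0.591, and the sign was the same in all 31.

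The ratio of Kera to Lum was less well measured than that of Bgn to Dcn. Its log2 values were -5.55, -1.49 and -3.17 in OFBI and -0.89, -0.33 and -0.86 in Naive libraries, with no overlap. The group means differed by -2.71 (exact permutation test, two-sided, p = 0.1, the smallest possible). The size of this difference rests on what is added to counts of 0, since adding 4 counts in place of 0.5 gave -1.01. In OFBI replicate 1 the floor of 12 counts for Kera stands against 23 counts of Lum, and in OFBI replicate 3 Lum itself was under the floor. The third ratio, Dcn to Lum, was 2.25, 1.74 and 2.90 in OFBI and 2.79, 2.84 and 2.66 in Naive libraries on the log2 scale. These groups overlapped (difference -0.47, exact permutation test, two-sided, p = 0.4), and no difference was shown. The difference was -0.76 with 4 counts added and -0.77 without OFBI replicate 3, each at the smallest p possible (exact permutation test, two-sided, p = 0.1).

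**Figure D2:**
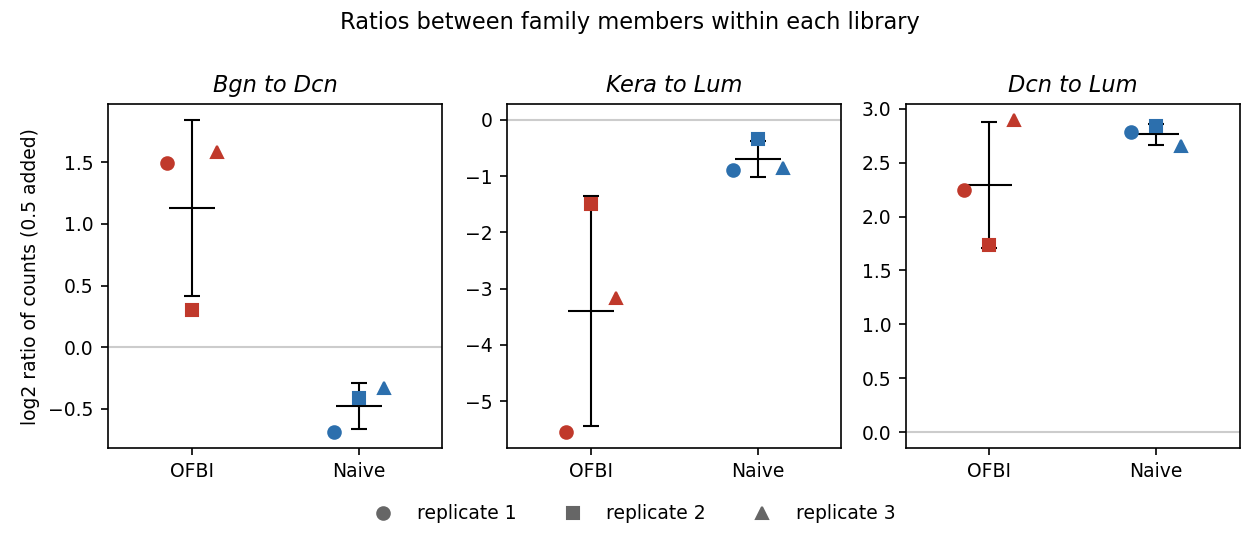
Log2 ratios of counts between pairs of members within each OFBI (red) and Naive (blue) library, with 0.5 added to each count, a line at the mean and bars of 1 SD. The ratio of Bgn to Dcn is above 0 in the 3 OFBI libraries and below 0 in the 3 Naive libraries, and the OFBI values of Kera to Lum spread from -5.55 to -1.49 because 2 of them rest on a Kera count of 0.

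Fibromodulin, Fmod (chromosome 1, 134037254 to 134048277), binds collagen at the site that lumican uses and carries keratan sulfate. It had 61.5, 65.3 and 14.0 CPM in OFBI libraries, against 57.5, 56.9 and 49.8 CPM in Naive libraries. OFBI replicates 1 and 2 were above every Naive library and OFBI replicate 3, with 15 counts, was below them. The log2 fold change was -0.17 (standard error 0.46, edgeR adjusted p = 0.832), and 0.20 without OFBI replicate 3.

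Prelp (chromosome 1, 133910304 to 133921414), a member with a basic region that binds heparan sulfate, had 69.9, 30.1 and 20.6 CPM in OFBI libraries, against 32.6, 33.7 and 32.5 CPM in Naive libraries. OFBI replicate 1 was above and the other two below all Naive libraries. On the log2 scale the change was 0.32 (standard error 0.42, edgeR adjusted p = 0.643), and -0.37 without OFBI replicate 1. The annotation places an antisense gene, Gm15851, over part of Prelp, and whether the counting used strand is not given in the sources used here.

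Osteomodulin, Omd (chromosome 13, 49582462 to 49592822), a keratan sulfate proteoglycan known from bone, had 3, 8 and 0 counts in OFBI and 18, 8 and 8 in Naive libraries. All 3 OFBI counts are under the floor, so no fold is given, and it was not among the tested genes. Without OFBI replicate 3 it passed the filter and was called higher (edgeR adjusted p = 0.0417, and 0.0119 to 0.525 over the alternatives that tested it), on counts of 3 and 8 that remain under the floor. Of 9 bone markers, 7 were at 0 in all OFBI libraries and 5 in all 6 libraries, among them Ibsp, Bglap and Dmp1. The other two were Spp1, called higher with 18.0 ± 4.34 CPM in OFBI and 5.85 ± 1.11 CPM in Naive corneas (edgeR adjusted p = 0.0365), and Alpl, with 43.2 ± 32.6 CPM in OFBI and 103 ± 13.7 CPM in Naive corneas, which did not pass (edgeR adjusted p = 0.168). Their part in the value of Omd was not tested.

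Osteoglycin, Ogn (chromosome 13, 49608046 to 49624501), also called mimecan, is a keratan sulfate proteoglycan in cornea. It had 1.24, 5.76 and 3.74 CPM in OFBI libraries, against 5.87, 8.58 and 7.40 CPM in Naive libraries. The groups did not overlap, by a small margin between OFBI replicate 2 and Naive replicate 1. The OFBI values rest on 4, 18 and 4 counts, and the log2 fold change was -1.03 (standard error 0.65, edgeR adjusted p = 0.321). It was -0.58 without OFBI replicate 1 and -1.85 without OFBI replicate 2, where DESeq2 called it (DESeq2 adjusted p = 0.0246) and edgeR did not (edgeR adjusted p = 0.0817). Its adjusted p ran from 0.0246 to 0.777 over 31 alternatives. Ogn, Aspn and Omd lie inside Cenpp, a centromere protein gene on the opposite strand, which had 5 counts summed over OFBI and 297 over Naive libraries.

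Podocan, Podn, a more distant member that binds collagen, had 6.80, 2.56 and 0 CPM in OFBI libraries, against 4.33, 5.43 and 3.41 CPM in Naive libraries. OFBI replicate 1 was above and the other two below all Naive libraries, and the log2 fold change was -0.35 (standard error 0.87, edgeR adjusted p = 0.820). The OFBI values rest on 22, 8 and 0 counts, so those of OFBI replicates 2 and 3 are under the floor of 12 counts. Podn shares positions and strand with Scp2, a lipid transfer protein gene with 773 counts summed over OFBI and 15183 over Naive libraries, so its own value is uncertain.

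The groups did not overlap for 4 of the 10 members, Dcn, Kera, Ogn and Aspn, all lower in OFBI. Among all tested genes 46.4% did not overlap, 29.9% with every OFBI library lower and 16.4% with every OFBI library higher, so 4 of 10 is near the background. Aspn in this count rests on counts of 0 under the floor. Kera rests on 0 counts and Ogn on 4 counts in each of OFBI replicates 1 and 3, also under the floor of 12 counts. The mean Naive levels of Kera and Ogn, 10.8 and 7.28 CPM, lie under the floor of OFBI replicate 3, 11.2 CPM.

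Per kilobase of exon, the order of the members was less sharp in the OFBI libraries than in the Naive ones, which had 16.7 times their mean depth. The part of counting error in this was not tested. The OFBI levels were 14.5 ± 1.89 CPM per kb for Bgn, 14.2 ± 8.64 for Fmod, 11.1 ± 7.23 for Prelp, 7.21 ± 2.84 for Dcn and 3.96 ± 3.10 for Lum (SD, n = 3). Ogn, Kera, Podn and Omd followed between 1.40 and 0.517, on at most 22 counts in any OFBI library, and Aspn was at 0. In the OFBI order every gene overlapped the next one. The Naive levels were 20.1 ± 0.54 CPM per kb for Dcn, 16.5 ± 1.30 for Fmod, 13.9 ± 1.39 for Bgn, 9.10 ± 0.19 for Prelp and 7.08 ± 0.43 for Lum (SD, n = 3). Kera, Ogn and Podn followed at 4.74, 2.84 and 1.03, and Aspn and Omd, at 0.206 and 0.104, were the one pair of neighbours in the Naive order that overlapped.

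These places depend on the length used for Dcn and Bgn, whose annotated exons add up to 5838 and 6099 bases while their longest protein-coding transcripts have 1758 and 2419. Per kilobase of the longest protein-coding transcript, Dcn had 24.0 CPM per kb in OFBI and 66.8 in Naive corneas, and Bgn 36.7 in OFBI and 35.0 in Naive corneas. Dcn was then in the second place in OFBI and in the first in Naive corneas. By the longest transcript of any kind, Bgn came first in both groups.

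As parts of the summed counts of the 10 members, not scaled for length, Dcn made up 17.9% ± 5.30 in OFBI and 35.6% ± 1.53 in Naive libraries (SD, n = 3 each). Bgn made up 39.7% ± 14.6 in OFBI and 25.6% ± 2.35 in Naive libraries. The part of Fmod was 18.3% ± 8.63 in OFBI and 16.6% ± 1.31 in Naive libraries, and that of Kera 0.797% ± 1.38 in OFBI and 3.26% ± 0.48 in Naive libraries. The summed level of the 10 members was 279, 268 and 166 CPM in OFBI libraries, against 324, 338 and 329 CPM in Naive libraries, with OFBI replicate 3 lowest. These sums rest on 902, 836 and 178 counts in OFBI and 14915 to 16425 in Naive libraries.

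Base composition moved with the fold changes of all genes and of the members. Tested genes were split into 3 equal groups by the share of G and C in their transcript, and over the lowest of these, up to 47.3%, the median log2 fold change was -0.50. In the middle group it was -0.25, and in the highest, from 53.7%, it was 0.18. Ogn (36.3%), Kera (40.7%), Lum (41.9%) and Dcn (42.8%) are in the lowest group and had the 4 most negative fold changes of the tested members. Bgn (52.5%), Fmod (53.7%), Prelp (53.8%) and Podn (57.2%) lie above it. With each library's trend on GC content and length removed, Dcn had a log2 fold change of -0.96 (standard error 0.20) and was the 1 member called lower, with 0 called higher (edgeR adjusted p = 0.0299). In that fit 8.39% of all tested genes were called lower and 6.2% higher, 14.6% in all.

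**Figure D3:**
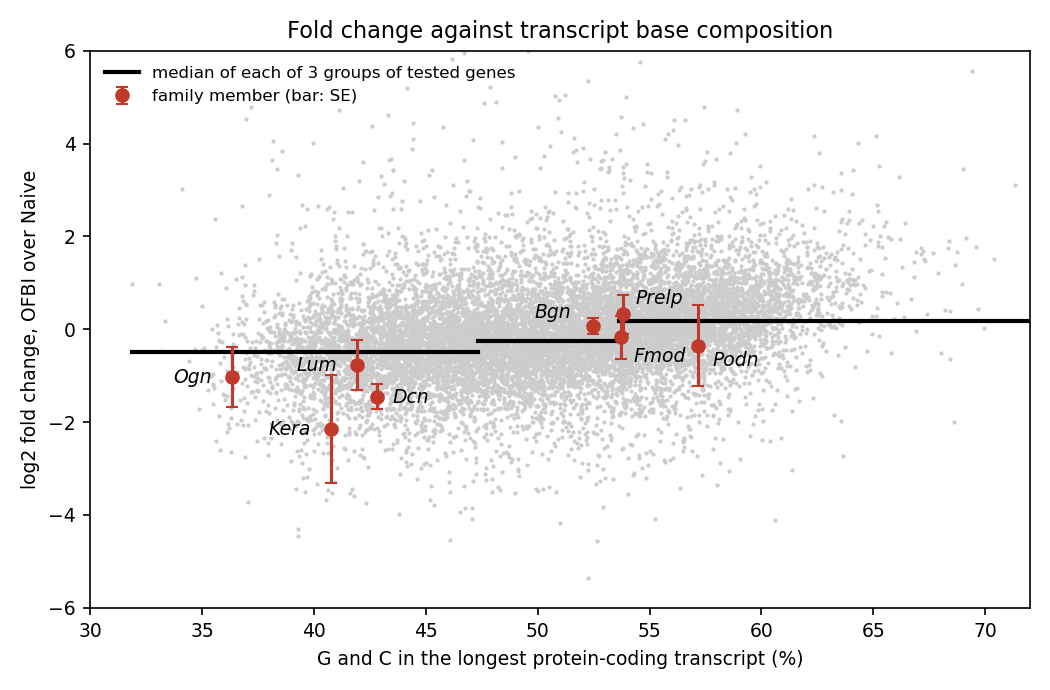
Log2 fold change, OFBI over Naive, against the percentage of G and C in the longest protein-coding transcript, for tested genes (grey, those beyond the axes not drawn) and the 8 tested members (red, bars of 1 standard error), with black lines at the median of each of 3 equal groups of genes. The 4 members below 43% lie below 0, as does the median of their group at -0.50, and the 4 members above 52% lie between -0.35 and 0.32.

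The same step moved the other members in the lowest group toward 0. Lum was at -0.27, Ogn at -0.33 and Kera at -1.67, and none of these passed (edgeR adjusted p = 0.742, 0.777 and 0.363). Bgn was at 0.12, Prelp at 0.22, Fmod at -0.22 and Podn at -0.71 after it. Bgn and Dcn thus stood closer together, at 0.12 and -0.96 against 0.07 and -1.46 before it. Their ratio was not tested with the trend removed. The median over the 8 members was then -0.30, against -0.19 over all genes.

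**Figure D4:**
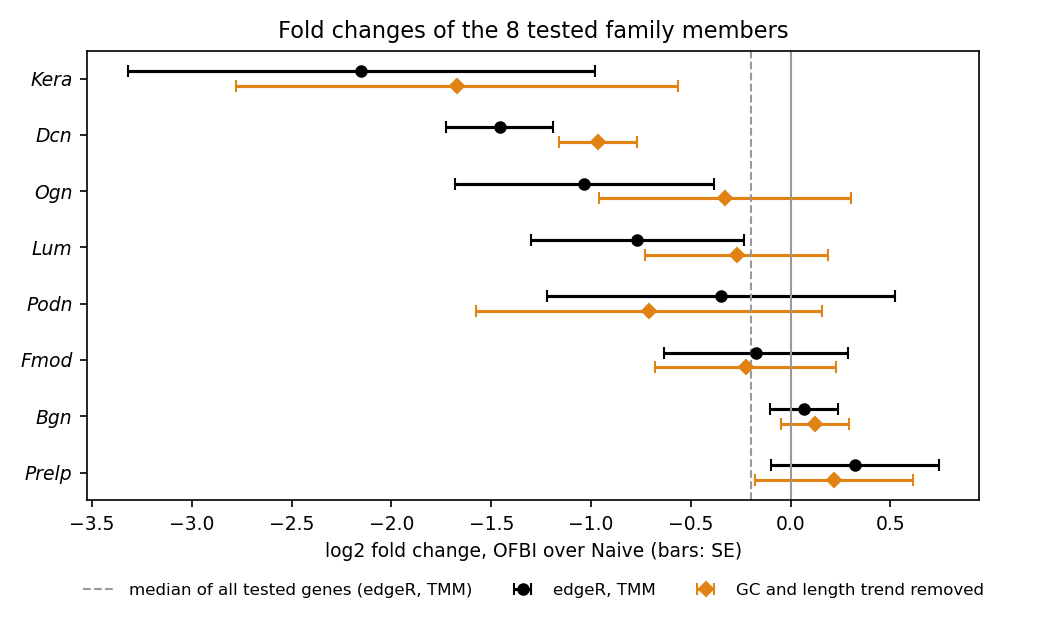
Log2 fold change, OFBI over Naive, of the 8 tested members with bars of 1 standard error, by edgeR with TMM scaling (black) and with a GC and length trend removed (orange). The dashed line is the median of all tested genes, -0.20, and Dcn is the one member that passed in both fits, at -1.46 and -0.96.

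Genes whose levels ran most like those of Kera, Lum and Dcn were looked for among all tested genes. Likeness was measured by Pearson's r of log2 CPM over the 6 libraries, against 9086 or 9087 other genes that averaged 10 CPM or more, and since the libraries fall into 2 groups of unlike depth it is a description of these libraries. For Kera the nearest were Wrn, Capns1 and Phf11d (r = 0.996 to 0.998), for Lum Tle4, Klf10 and Ubxn7, and for Dcn Parp6, Rasgef1b and Pias2. Kera had r = 0.94 with both Lum and Dcn, and r = -0.66 with Bgn.

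Fibril collagens and their partners, which the family binds, were largely higher. Of 18 such genes tested, 12 were called higher and 1, Col12a1, lower, with a median log2 fold change of 1.57. Col1a1, the main fibril collagen chain, had 3364, 2634 and 4196 CPM in OFBI libraries, against 564, 727 and 885 CPM in Naive libraries, with no overlap (log2 fold change 2.23, SE 0.24, edgeR adjusted p = 0.00666). Its partner chain Col1a2 had a log2 fold change of 1.66, Col3a1, a collagen of thin fibrils and repair tissue, one of 3.02, and Col5a1, which sets fibril width, one of 2.00. Eln, elastin, had 3.05, and Tnxb, tenascin X, 1.23.

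There were 12.1, 9.84 and 25.2 counts of Col1a1 per count of the 10 members in OFBI libraries, against 1.74, 2.15 and 2.69 in Naive libraries. Per count of Dcn there were 98.0, 43.1 and 136 counts of Col1a1 in OFBI libraries, against 4.66, 6.26 and 7.68 in Naive libraries. Both sets of values did not overlap between groups. Base composition differs here too, with 58.9% G and C in Col1a1. With the GC and length trend removed, the log2 fold change of Col1a1 was 1.40 (edgeR adjusted p = 0.0167), 9 of the 18 genes were higher and 0 lower, and Tnxb was no longer called (0.20, edgeR adjusted p = 0.675).

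**Figure D5:**
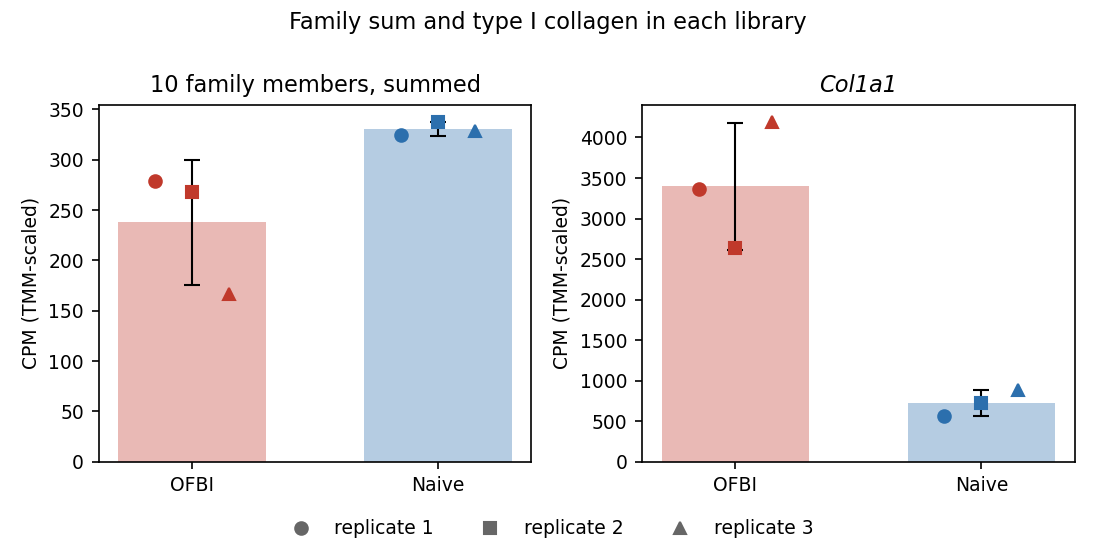
Summed level of the 10 members (left) and level of Col1a1 (right) in CPM, TMM-scaled, in OFBI (red) and Naive (blue) libraries, with bars at the mean from 0 and error bars of 1 SD. The family sum is 166 to 279 CPM in OFBI and 324 to 338 CPM in Naive libraries, while Col1a1 is 2634 to 4196 CPM in OFBI and 564 to 885 CPM in Naive libraries.

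Genes that build the keratan sulfate chains of Lum, Kera and Fmod were mixed. Of 11 tested, 1 was called higher and 2 lower, with a median log2 fold change of -0.65. Chst5, the sulfotransferase of corneal keratan sulfate in mouse, had 3.65 ± 1.04 CPM in OFBI and 17.8 ± 1.99 CPM in Naive corneas (SD, n = 3 each), a log2 fold change of -2.29 (standard error 0.42, edgeR adjusted p = 0.0187). With the GC and length trend removed it was -2.93 (edgeR adjusted p = 0.0170). Chst2, another sulfotransferase that acts on N-acetylglucosamine, was higher at 1.42 (edgeR adjusted p = 0.0367). Papss1, which makes the sulfate donor, had -0.65 (edgeR adjusted p = 0.0445) and -0.47 with the trend removed, where it no longer passed (edgeR adjusted p = 0.0967). B4galt1, an abundant galactosyltransferase, had 189 ± 101 CPM in OFBI and 201 ± 6.59 CPM in Naive corneas.

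Of 20 tested genes that build the chondroitin and dermatan sulfate chains of Dcn and Bgn, 2 were called higher and 1 lower, and the median log2 fold change was 0.30. Removing the GC and length trend left a median of -0.22, and 3 were then called higher and 2 lower. Chsy3, a chain polymerase, had a log2 fold change of 1.54 and Ust, a uronyl sulfotransferase, one of 2.02 (edgeR adjusted p = 0.0310 and 0.0198). Fam20b, the kinase that phosphorylates the xylose linking a chain to its serine, had 136 ± 15.6 CPM in OFBI and 227 ± 4.54 CPM in Naive corneas (SD, n = 3 each), a log2 fold change of -0.73 (edgeR adjusted p = 0.0195). These 3 calls held with the trend removed. Chst15, the most abundant sulfotransferase of the list, had 73.5 ± 37.9 CPM in OFBI and 137 ± 8.60 CPM in Naive corneas and did not pass (edgeR adjusted p = 0.140).

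Among 18 tested receptors and ligands that decorin, biglycan or lumican bind, 1 was called higher and 3 lower, with a median log2 fold change of 0.04. Tgfb1, a growth factor that decorin binds, had 125 ± 13.3 CPM in OFBI and 56.0 ± 7.01 CPM in Naive corneas, a log2 fold change of 1.16 (edgeR adjusted p = 0.0111). With the GC and length trend removed it was 0.06 (edgeR adjusted p = 0.886), and its transcript has 62.5% G and C. Egfr and Met, growth factor receptors bound by decorin, had log2 fold changes of -0.98 and -0.90 (edgeR adjusted p = 0.0206 and 0.0430), and with the trend removed -0.78 and -0.76, where neither passed (edgeR adjusted p = 0.0520 and 0.0733). P2rx7, a purine receptor engaged by soluble biglycan, had -2.24 in both fits (edgeR adjusted p = 0.0215 and, with the trend removed, 0.0293). Lrp1, an endocytic receptor for decorin, and Igf1r, a growth factor receptor that decorin binds, had the highest mean levels over the 6 libraries, with log2 fold changes of -0.06 and 0.04 and did not pass (edgeR adjusted p = 0.795 and 0.904).

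Of 12 tested proteases and helpers that process or cleave family proteins, 2 were called higher and 3 lower. Bmp1, which trims the propeptides of biglycan and osteoglycin, had a log2 fold change of 0.87 (edgeR adjusted p = 0.0347), and 0.41 with the trend removed, where it did not pass (edgeR adjusted p = 0.339). Gzmb, granzyme B, which cleaves decorin and biglycan, had 30, 48 and 76 counts in OFBI and 64, 10 and 6 in Naive libraries, a log2 fold change of 5.81 (standard error 1.24, edgeR adjusted p = 0.0247). Adamts5, an aggrecanase that also cleaves some family members, was at 0 in all OFBI libraries, at least 2.93-fold lower than the Naive level of 4.75 ± 0.79 CPM. The other two lower calls, Tll2 and Adamts4, had Naive levels under the OFBI floor. Mmp14 and Pcolce, the most abundant of the list, had log2 fold changes of 0.11 and 0.39 and did not pass (edgeR adjusted p = 0.883 and 0.199).

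Of 8 other genes of the family and its close relatives, 4 were tested, and 0 were called higher and 1 lower. With the GC and length trend removed, 1 was called higher and 1 lower. Optc, opticin, a proteoglycan of the vitreous, was at 0 in all OFBI libraries, at least 5.31-fold lower than its Naive level of 8.54 ± 1.10 CPM, which rests on 482, 406 and 334 counts. Its neighbours on chromosome 1, Prelp and Fmod, did not pass. A list of 5 pigment cell and iris genes summed to 28.1 to 132 CPM in OFBI and 176 to 191 CPM in Naive libraries, and its part in the value of Optc was not tested. Tsku and Chad, both with a higher mean level than Optc over the 6 libraries although Chad is below Optc in Naive corneas, had log2 fold changes of 0.03 and 0.49 and did not pass (edgeR adjusted p = 0.981 and 0.745). The fourth, Ecm2, was at 1.52 and did not pass (edgeR adjusted p = 0.0673). With the trend removed it was at 2.13 and was the gene called higher (edgeR adjusted p = 0.0385). Its OFBI values rest on 12, 8 and 3 counts.

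Of the related genes named from these 6 lists, 22 passed with all libraries. Without OFBI replicate 1, 2 or 3, edgeR called 16, 19 and 19 of these 22. Without Naive replicate 1, 2 or 3, it tested 20 of them and called 4, 0 and 5, of which Col1a1, Col1a2, Col3a1 and Eln were called without replicate 1 and also without replicate 3. DESeq2 called 20, 16 and 17 of the 22 without Naive replicate 1, 2 or 3. With the Naive libraries thinned, edgeR tested 20 and called 18, without Papss1 and Met. With all 6 thinned it tested 16 and called 11, without Chst2, Papss1, Fam20b, Met and Bmp1.

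The marker lists for cornea were detected in both groups, and their balance differed. Of 8 epithelial markers, 3 were higher and 1 lower, and their sum was 55126 to 73811 CPM in OFBI and 26406 to 27116 CPM in Naive libraries, led by Krt12 and Krt5. Of 13 keratocyte markers outside the family, 3 were higher (Thy1, Col5a1, Thbs4) and 3 lower (Ptgds, Chst5, Col12a1). Their median log2 fold change was -0.79, and -0.65 with the GC and length trend removed. The keratocyte list summed to 3476 to 3895 CPM in OFBI and 3636 to 4226 CPM in Naive libraries. Most of this sum is 1 gene, Tkt, with 2577 ± 275 CPM in OFBI and 3148 ± 285 CPM in Naive corneas. The sum is therefore no measure of the list as a whole. Of 7 endothelial markers, 4 were lower, with sums of 1337 to 1493 CPM in OFBI and 1778 to 1839 CPM in Naive libraries. With the GC and length trend removed, 4 epithelial markers were higher and 0 lower, 3 keratocyte markers higher and 2 lower, and 2 endothelial markers lower. Markers of heart (4 of 8 tested, and 3 with the trend removed) and liver (4 of 5 tested) were higher in OFBI. The liver list summed to 139 to 946 CPM in OFBI and 30.7 to 41.5 CPM in Naive libraries. Another 13 markers were of sclera, tendon and cartilage, tissues that also express Fmod, Prelp, Aspn and Ogn. Of these, 2 were higher and 1 lower (1 and 0 with the trend removed), and Acan and Matn1 were at 0 in all 6 libraries. Their sums were 92.2 to 119 CPM in OFBI and 63.6 to 65.8 CPM in Naive libraries. Much of that sum is Thbs4, also in the keratocyte list, with 66.3 ± 8.01 CPM in OFBI and 34.1 ± 1.58 CPM in Naive corneas. The lower call, Matn3, had a Naive level of 0.542 CPM, under the OFBI floor. The part of these shifts in the values of the members was not tested.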

How the data were processed

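RNA was measured in 3 OFBI and 3 Naive cornea libraries. Per the labels' protocols, total RNA was taken with RNeasy columns and 2 µg per sample entered a stranded kit. Tools listed in the submitters' processing notes are HISAT2, StringTie, FastQC and DESeq2, and the build is GRCm38, without versions or the step each served. Neither the annotation release nor the strand setting is given in the sources used here. Deposited by the authors were whole-number estimated counts per gene, not scaled for depth, in 1 table per library. That 4 counts stand for about 1 fragment is an inference from the values, in which multiples of 4 made up 39.4% to 50.4% of those from 1 to 40. Rows sharing a symbol were summed, which left 22007 symbols.

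edgeR 4.0.16 under R 4.3.3 was run on all genes passing filterByExpr (TMM, factors 0.916 to 1.08, quasi-likelihood test, group as the only term, two-sided, Benjamini-Hochberg adjusted p below 0.05 over all 13941 tested genes). The SE of a log2 fold change is its size over the square root of F. CPM are TMM-scaled, and means are given ± SD over 3 libraries. Ratios were compared by an exact permutation test. Lengths, GC content and 1-based coordinates came from GENCODE mouse release 21 (GRCm38), matched by symbol for 21710 symbols, and that release may not be the one the authors used. The procedure was tested in 3 simulations of OFBI against Naive. It detected 1.39% of genes given a 2-fold difference and 41.7% of those given a 4-fold difference. False positives made up 6.29% of the genes called. A gene that did not pass is therefore not shown to be unchanged.

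The rule names the members by symbol and reads no value, but the family and the gene lists were chosen with earlier results of these data known. Named genes were the 10 members, in each of 6 related lists up to 6 called genes of smallest p and the 2 most abundant tested ones, the 2 most abundant of each of 15 marker lists (of which the text names those a result turns on), and the 3 genes most like Kera, Lum and Dcn. Others were named after their values were seen. Replicate numbers did not pair the libraries (correlations of same-numbered deviations -0.003, -0.018 and 0.008). No 2 libraries of a group agreed within sampling noise (mean chi-square per gene 16.7 to 58.8). These chi-square values come from the counts as deposited, and the inferred 4 counts per fragment make them larger than values for fragments would be. Alternatives were DESeq2 1.42.0, limma-voom from limma 3.58.1 with and without quality weights, other scalings and filters, thinning, counts divided by 4, a GC and length trend removed and each library left out. The length of the longest protein-coding transcript was an alternative chosen after seeing the data.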

Additional observations from a re-analysis of the deposited data

How the results depend on the processing

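Depth limits the OFBI group: at 1173472 counts, OFBI replicate 3 could not resolve the Naive levels of Kera, Ogn, Podn, Aspn or Omd, which lie under its floor of 11.2 CPM. The higher genes numbered 1173, against 1905 with DESeq2 and 540 with a replicate block, and 0 to 2434 with a library left out by edgeR, DESeq2 or limma-voom. The lower genes numbered 1446, against 910 with no filter, 253 with a replicate block, 587 with the Naive libraries thinned, 469 with all thinned, and 0 to 2904 with a library left out. Without Naive replicate 2 edgeR called 0 genes (2441 had an unadjusted p below 0.05), DESeq2 1537 and limma-voom 1566. Members called lower numbered 1, against 2 (Dcn, Kera) with limma-voom with and without quality weights, and 0 to 4 with a library left out. Members called higher numbered 0, and 0 to 1 (Omd) with a library left out. With the replicate block 9 of 22 named related genes that had passed were called, and Dcn had a log2 fold change of -1.53 (edgeR adjusted p = 0.0226).

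Signs turned for values that passed no test. With library size alone, which put the median of all tested genes at -0.40 against -0.20 with TMM and Dcn at -1.66, Bgn was at -0.14, Tsku at -0.17, Igf1r at -0.16 and Mmp14 at -0.083. Quality weights put Fmod at 0.062, and limma-voom put Chad at -0.71 and Tsku at -0.32. With the replicate block Chad was at -0.076, Tsku at -0.22 and Mmp14 at -0.081. Removing the GC and length trend put Tsku at -0.12 and Pcolce at -0.13, and thinning the Naive libraries put Lrp1 at 0.023. With a library left out, log2 fold changes ranged from -0.10 to 0.17 for Bgn, -0.37 to 0.64 for Prelp, -0.64 to 0.25 for Fmod, -2.04 to 0.13 for Podn, -1.33 to 1.01 for Chad, -0.84 to 0.41 for Tsku, -0.62 to 0.23 for B4galt1, -0.13 to 0.23 for Igf1r, -0.18 to 0.042 for Lrp1 and -0.24 to 0.53 for Mmp14. The causes were not tested. The ratio of Kera to Lum had no value with 0 added to its counts.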
